A study of Homo sapiens with 17 samples.

Results

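The miR-30 family is a group of 6 microRNA hairpins, MIR30A, MIR30B, MIR30C1, MIR30C2, MIR30D and MIR30E, here followed arm by arm in K562, a human erythroleukemia cell line that carries an inducible short hairpin RNA against Drosha. Members were chosen by position: an alignment of 18 to 26 nt counted for a hairpin if it lay on the hairpin's strand inside its window on hg19, and for the 5p or 3p arm by its midpoint. This gave 12 arms, of which 11 could be tested, among 42766 regions of the genome tested on at least 1 day. MIR30C2-3p, with 7 reads on the numerator side and 18 on the denominator side over all tables, could not be tested.

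The groups were cells kept in 1 µg/mL doxycycline (Dox) for 3 d (2 libraries), 13 d (3) or 31 d (3), and cells kept in water for the same times with the same numbers of libraries; all carried the Drosha shRNA, per the genotype label. An untreated library of the same line was not analysed here. The labels call the replicates independent biological ones; the sources used here do not say whether the line is 1 clone. Each of 8 tables sets 1 library, the numerator side, over its partner of the same day and replicate number, the denominator side. Neither the tables nor the labels say which side is Dox, so no Dox direction can be attached to any value, and 1 common orientation of the 8 tables is assumed. Drosha mRNA and cell line markers were not measured by these small RNA libraries, so the knockdown and the identity of the line were not checked. In bulk RNA, fewer cells of a kind and less RNA per cell cannot be told apart.

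As background, Drosha and its partner DGCR8 cut a hairpin out of a primary transcript in the nucleus, Dicer then removes the loop, and 1 arm of the resulting duplex is kept in an Argonaute protein. Drosha sets the 5′ end of the 5p arm and Dicer the 5′ end of the 3p arm. The bases after the first of the mature microRNA, its seed, pair with target mRNAs, so an end moved by a base changes the seed. The miR-30 family is known for repressing mRNAs of differentiation, autophagy and the epithelial to mesenchymal transition.

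The mature sequences below show what the members share and where they differ. They are from RefSeq (GRCh38.p14), in which 4 of the 6 hairpins were matched by symbol, and capitals mark the seed, bases 2 to 8.
miR-30e-5p: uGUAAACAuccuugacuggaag
miR-30a-5p: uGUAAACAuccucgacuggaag
miR-30c-5p: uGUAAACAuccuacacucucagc
miR-30e-3p: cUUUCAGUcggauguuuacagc
miR-30a-3p: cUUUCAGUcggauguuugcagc
miR-30c-1-3p: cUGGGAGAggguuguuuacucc
miR-30c-2-3p: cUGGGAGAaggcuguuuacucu
The 3 5p arms share 1 seed, and the 3p arms fall into 2 pairs by seed. Counted from 1 at the 5′ end, miR-30a-5p differs from miR-30e-5p only by U13C, and miR-30a-3p from miR-30e-3p only by A18G. MIR30C1 and MIR30C2 give the same miR-30c-5p, and the rule by which a read with more than 1 possible place was assigned is not stated in the sources used here. Of the miR-30c-5p reads, 49.2% to 50.8% were placed at MIR30C1 on the numerator sides and 50.03% to 51.2% on the denominator sides. MIR30C1-5p and MIR30C2-5p are therefore 1 measurement divided over 2 places, and their values cannot be assigned to either hairpin.

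The 6 hairpins form 3 pairs of neighbours. From the most frequent 5p start to the end of the most frequent 3p alignment, MIR30E spans chr1:41220043-41220106 and MIR30C1 chr1:41222972-41223032, both on the plus strand. MIR30D spans chr8:135817121-135817183 and MIR30B chr8:135812775-135812834, both minus, and MIR30A chr6:72113256-72113319 and MIR30C2 chr6:72086667-72086728, both minus. These positions are 1-based on hg19. The windows of a pair lie 2837 nt, 4268 nt and 26519 nt apart. In the RefSeq gene table of GRCh38.p14, the span of NFYC, a subunit of the transcription factor NF-Y, holds MIR30E and MIR30C1, and that of ZFAT, a zinc finger protein, holds MIR30D and MIR30B. Exons, introns and UTRs were not looked up, as no hg19 annotation was used here.

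Reads started where RefSeq places the mature ends. In all 4 matched hairpins the most frequent start over both sides was the first base of the RefSeq arm, for 5p and 3p alike. Start sites were tight for most 5p arms: at least 99.7% of reads of MIR30B-5p, MIR30C1-5p, MIR30C2-5p and MIR30D-5p had the most frequent start on both sides of every table. MIR30E-5p was the loosest 5p arm, with 79.7% to 92.6% at that start on the numerator sides and 90.5% to 94.1% on the denominator sides. The most frequent starts of the 2 arms lay 38 to 42 bases apart over the 6 hairpins. The letters UGUG, a feature described near the loop of primary microRNAs, were searched on the transcribed strand in the loop with 4 bases of each arm; each UGUG also holds UGU. UGUG was found in MIR30A, MIR30C1 and MIR30C2 and not in MIR30E, beside 18.7% of 739 RefSeq hairpins.

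The family took 0.726% to 2.33% of the listed 18 to 26 nt reads on the numerator sides and 0.751% to 2.22% on the denominator sides. Wilson 95% intervals were narrow, as in 1.752% to 1.760% for the numerator and 1.443% to 1.458% for the denominator at 3 d, replicate 1. They cover counting error only, since reads without molecular identifiers are not independent molecules. Listed 18 to 26 nt reads numbered 17187780 to 49110893 per numerator and 8531063 to 42707953 per denominator library. An alignment without denominator reads is not listed in a table. The listed alignments of all lengths held 57.4% to 87.2% of the numerator libraries' implied totals and 66.5% to 91.5% of the denominator libraries' totals at 13 d and 31 d. At 3 d they held 69.8% and 58.2% of the numerator and 45.1% and 33.2% of the denominator libraries, and the part of this in the 3 d ratios was not tested.

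MIR30D-5p was the most abundant arm on both sides at every time. In the 6 tables of 13 d and 31 d its level had a median of 283400 RPKM (reads per kilobase, scaled to the library total; 158500 to 647700) on the numerator side and 350400 (285600 to 417200) on the denominator side. On the numerator side MIR30B-5p came next with a median of 22250, and overlapped in range with MIR30E-3p at 6876, MIR30C1-5p at 6331, MIR30C2-5p at 6213 and MIR30E-5p at 5614. On the denominator side MIR30E-5p came next with a median of 83440, followed by MIR30C1-5p at 30200, MIR30C2-5p at 29590, MIR30E-3p at 28980 and MIR30B-5p at 17740. Neighbours in this order, from the second to the sixth arm, overlapped in range on either side. The other 5 tested arms were lower throughout: their medians ran from 29.9 for MIR30A-3p to 436 for MIR30B-3p on the numerator side, and from 240 for MIR30A-3p to 778 for MIR30A-5p on the denominator side. MIR30C2-3p was last, with a median of 0 on the numerator side and 1.45 on the denominator side.

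At 13 d and 31 d both arms of MIR30E and MIR30C1, the miR-30c-5p shared with MIR30C2, and MIR30A-3p were lower on the numerator side, by 3.11-fold to 8.59-fold, while no arm of MIR30D or MIR30B passed the test in either direction. Each log2 ratio was tested against 0 with limma, 1 mean per day, with Benjamini-Hochberg adjustment over all regions tested that day at 0.05; errors are its standard errors. In the counts and medians of arms here and below, miR-30c-5p, a single measurement, stands as 1 arm at MIR30C1 and 1 at MIR30C2. At 13 d, 6 of 11 arms passed, all lower, beside 29.3% of 16795 regions called, 19.1% lower and 10.2% higher. At 31 d the same 6 arms passed, all lower, beside 14.1% of 27086 regions called, 12.2% lower and 1.89% higher. The median log2 ratio of the arms was -2.40 at 13 d and -1.63 at 31 d, beside -0.39 and -0.46 over all regions tested.

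**Figure D1:**
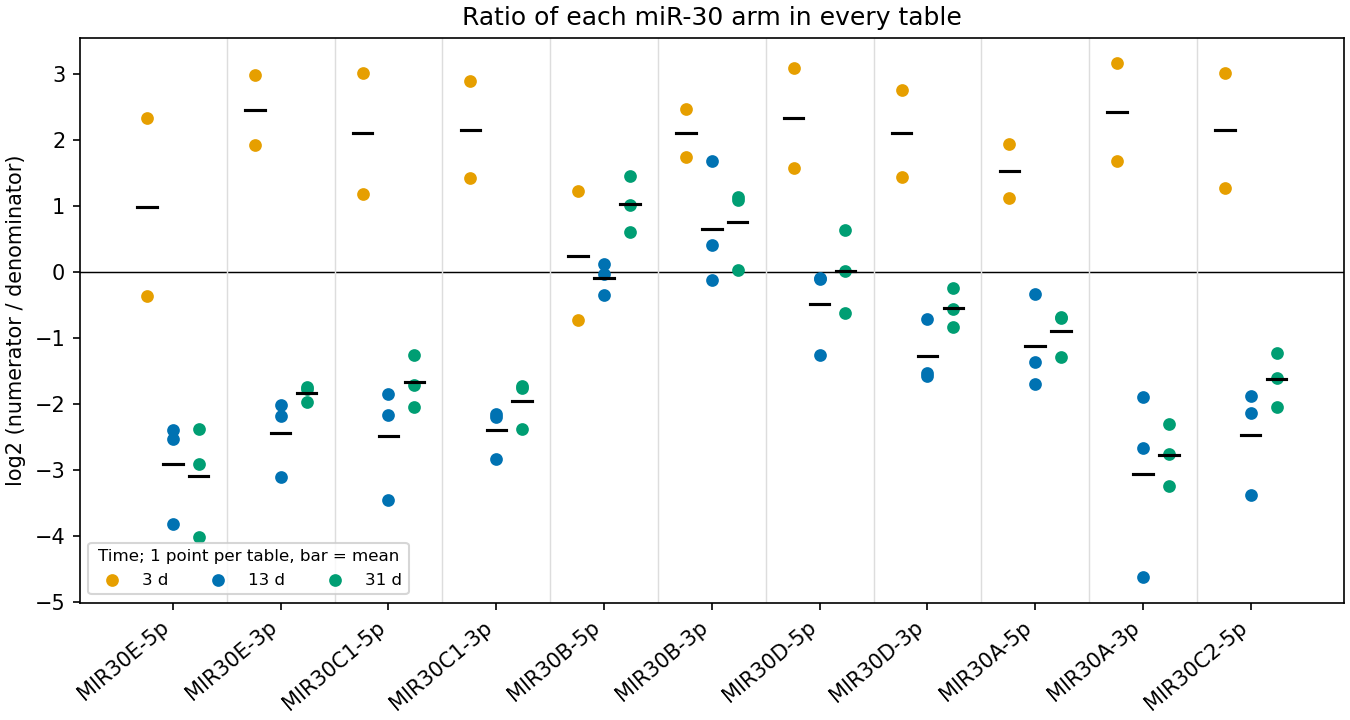
Log2 ratio of the numerator over the denominator side for the 11 tested miR-30 arms, 1 point per table, coloured by time, with the mean as a bar. All points of MIR30E, MIR30C1, MIR30C2-5p and MIR30A at 13 d and 31 d lie below 0, from -4.63 to -0.33, while those of MIR30B and MIR30D-5p lie on both sides of 0. Those of MIR30D-3p at these times also lie below 0, from -1.58 to -0.26.

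MIR30E-5p and MIR30A-3p had the lowest mean log2 ratios of the family at 13 d and 31 d, and which of them was lower at 31 d depended on replicate 2. At 13 d MIR30E-5p had 690, 794 and 6971 reads on the numerator sides of replicates 1, 2 and 3, against 4025, 5816 and 91943 on their denominator sides. At 31 d it had 21346, 8564 and 20305 reads on the numerator sides, against 114254, 126978 and 125605 on the denominator sides. The numerator was the lower side in 6 of 6 tables. Its log2 ratio was -2.92 ± 0.55 at 13 d (SE, n = 3 tables, limma adjusted p = 5.3e-04) and -3.10 ± 0.55 at 31 d (n = 3, limma adjusted p = 5.7e-04), which is 7.58-fold and 8.59-fold lower.

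MIR30E-3p, the other arm of the same duplex, was lower as well. It had 9258, 5828 and 2736 reads on the numerator sides at 13 d, against 40265, 32452 and 21672 on the denominator sides. The 31 d tables had 6184, 10146 and 12414 on the numerator sides, against 21854, 35613 and 34159 on the denominator sides. The numerator was lower in 6 of 6 tables. The log2 ratios were -2.44 ± 0.48 at 13 d (SE, n = 3, limma adjusted p = 7.1e-04) and -1.84 ± 0.48 at 31 d (n = 3, limma adjusted p = 0.0123).

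The 5p arm of MIR30E held very different shares of its hairpin from table to table. It made up 5.36%, 6.41% and 11.1% of the scaled reads of the hairpin on the numerator sides of 3 d replicate 1 and 13 d replicates 1 and 2, against 21.8%, 8.18% and 13.7% on their denominator sides. In the other 5 tables it made up 43.3% to 75.6% on the numerator and 59.1% to 82.4% on the denominator sides. Both sides of a table thus lay on the same side of this divide. At 13 d the ratios were below 0 in both kinds of table: MIR30E-5p had -2.40 and -2.53 in the tables of low 5p share and -3.83 in the table of high share. At 3 d they were not alike, with -0.38 in the table of low share and 2.33 in that of high share. A fit without the 3 low-share tables, an alternative chosen after the values were seen, leaves 1 table each at 3 d and 13 d. MIR30E-5p then had log2 ratios of 2.33 at 3 d, -3.83 at 13 d and -3.10 at 31 d. Calls of this fit are not given.

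**Figure D2:**
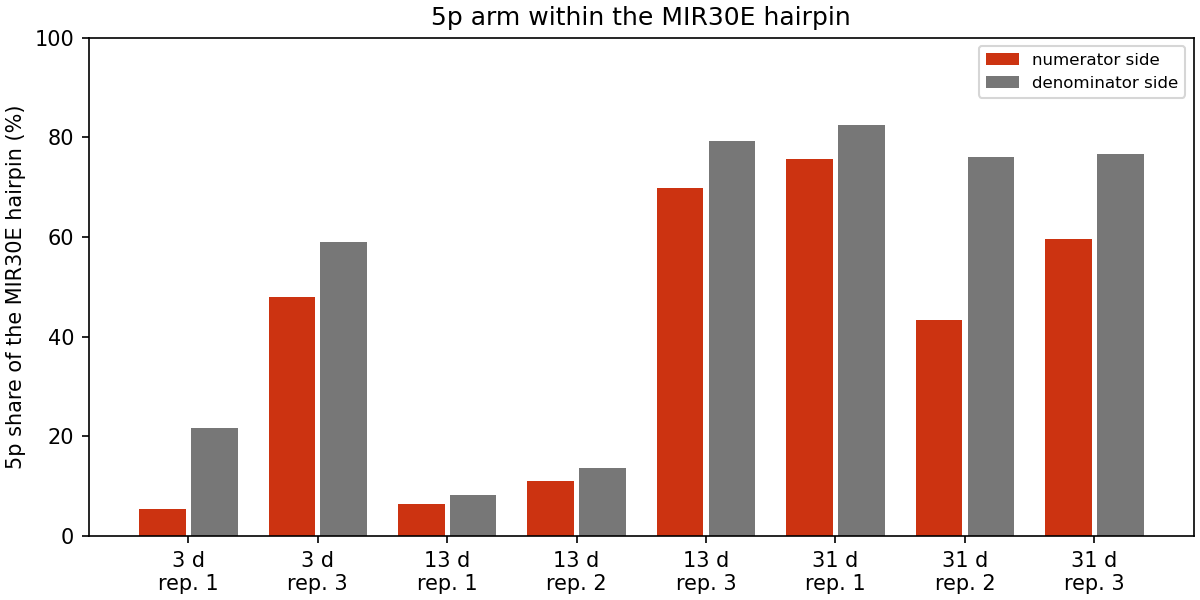
Share of the MIR30E hairpin's scaled reads that fell on its 5p arm, in percent, with the numerator side left of the denominator side in each table. The share lies between 5.36% and 21.8% in 3 tables and between 43.3% and 82.4% in the other 5.

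MIR30C1 and miR-30c-5p were lower together. MIR30C1-5p had 5931, 5398 and 4041 reads on the numerator sides at 13 d, against 23339, 30338 and 40072 on the denominator sides. The 31 d tables had 11981, 10257 and 20897 on the numerator sides, against 40271, 38302 and 41320 on the denominator sides. This gave log2 ratios of -2.50 ± 0.51 at 13 d (SE, n = 3, limma adjusted p = 9.7e-04) and -1.68 ± 0.51 at 31 d (n = 3, limma adjusted p = 0.0288). The same microRNA placed at MIR30C2 had -2.47 and -1.63, and is no second observation.

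MIR30C1-3p carries a sequence of its own and so is the arm that belongs to MIR30C1 alone. It had 67, 86 and 139 reads on the numerator sides at 13 d, against 339, 482 and 894 on the denominator sides, and 174, 172 and 266 at 31 d, against 600, 815 and 744. The log2 ratios were -2.40 ± 0.59 at 13 d (SE, n = 3, limma adjusted p = 0.0038) and -1.96 ± 0.59 at 31 d (n = 3, limma adjusted p = 0.0285). The unscaled reads of the sides did not overlap at either time. The same held for MIR30E-3p, for MIR30A-3p and for miR-30c-5p at both its places, and how many other regions did so was not counted. MIR30C2-3p, its counterpart at MIR30C2, had numerator reads in 1 table alone, 13 d replicate 2, with 7 reads against 12 on the denominator side.

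MIR30A was the rarest hairpin with a measurable pair of arms, and its arms differed. Both arms match those of the more abundant MIR30E at 21 of 22 bases, and whether misread or misplaced reads of other members add to these counts was not tested. MIR30A-3p had 105, 50 and 9 reads on the numerator sides at 13 d, against 424, 402 and 203 on the denominator sides. By 31 d there were 32, 46 and 39 on the numerator sides, against 163, 281 and 302 on the denominator sides. The log2 ratios of this arm were -3.06 ± 0.65 at 13 d (SE, n = 3, limma adjusted p = 0.0013) and -2.77 ± 0.66 at 31 d (n = 3, limma adjusted p = 0.0068). MIR30A-5p had 371, 549 and 262 reads on the numerator sides at 13 d, against 505, 1765 and 763 on the denominator sides. Its 31 d reads were 524, 524 and 1189 on the numerator sides, against 878, 1166 and 1564 on the denominator sides. Its log2 ratios of -1.13 ± 0.57 (limma adjusted p = 0.14) and -0.89 ± 0.57 (limma adjusted p = 0.314) did not pass, although the numerator was lower in 6 of 6 tables.

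MIR30D-5p, the bulk of the family, did not pass at either time. It had 276096, 303014 and 202007 reads on the numerator sides at 13 d, against 319505, 396955 and 431480 on the denominator sides. At 31 d it had 394699, 396984 and 971947 on the numerator sides, against 402111, 548727 and 507497 on the denominator sides. Numerator and denominator values overlapped at 31 d, where replicate 3 had the highest numerator and replicates 1 and 2 a lower or near-equal one. Its log2 ratio was -0.49 ± 0.45 at 13 d (SE, n = 3, limma adjusted p = 0.442) and 0.0039 ± 0.44 at 31 d (n = 3, limma adjusted p = 0.997). MIR30D-3p, a minor arm with 100 to 917 reads on a numerator and 70 to 1094 on a denominator side over all tables, had -1.28 ± 0.58 and -0.55 ± 0.58 and did not pass. Its log2 ratio was below 0 in 6 of 6 tables of these times.

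MIR30B-5p had 4718, 4128 and 19238 reads on the numerator sides at 13 d, against 5216, 4760 and 22047 on the denominator sides. At 31 d it had 33576, 47465 and 95890 on the numerator sides, against 22835, 21007 and 28987 on the denominator sides. The numerator had more reads in each 31 d table and fewer in each 13 d table, where the scaled log2 ratio of replicate 2 was 0.11. Its log2 ratio was -0.09 ± 0.51 at 13 d (SE, n = 3, limma adjusted p = 0.911) and 1.02 ± 0.50 at 31 d (n = 3, limma adjusted p = 0.179), neither past the threshold. MIR30B-3p, with 97 to 844 reads on a numerator and 36 to 452 on a denominator side over all tables, had 0.65 ± 0.61 and 0.75 ± 0.61 and did not pass.

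Scaling bears on these calls. Over 5893 regions tested on all days, the 3 d tables had a median log2 ratio of 0.82 and 1.41. Those of 13 d had medians of 0.23, -0.76 and -1.13, and those of 31 d medians of -0.44, -0.71 and -0.80. Relative to these medians the same 6 arms passed as lower at 13 d. At 31 d, MIR30E-5p at -2.45 and MIR30A-3p at -2.12 still passed as lower, MIR30E-3p at -1.19, MIR30C1-5p at -1.03, MIR30C1-3p at -1.31 and MIR30C2-5p at -0.99 did not, and MIR30B-5p at 1.67 passed as higher (limma adjusted p = 0.0221). Over all regions this centring changed the calls to 2418 higher and 1992 lower at 13 d, beside 1710 and 3215 as deposited, and to 1237 higher and 1549 lower at 31 d, beside 513 and 3316. At 13 d, MIR30A-3p and MIR30C1-3p did not pass without replicate 3. The 31 d calls rest on all 3 tables: without replicate 1, 3 arms passed (MIR30E-5p, MIR30E-3p and MIR30A-3p), and without replicate 2 or replicate 3, only MIR30E-5p did.

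Differences between hairpins of 1 table do not depend on that scaling. Scaled reads were summed over the arms of a pair before the log2 ratio was taken. For MIR30E and MIR30C1 this ratio was -1.99, -2.21 and -3.59 in the 13 d tables. In the 31 d tables it was -2.11, -2.90 and -2.17. For MIR30D and MIR30B it was -0.11, -0.09 and -1.20 in the 13 d tables and 0.04, -0.51 and 0.69 in the 31 d tables. MIR30E and MIR30C1 thus lay below MIR30D and MIR30B in 6 of 6 tables, by 1.88 to 2.87 on the log2 scale. MIR30A and MIR30C2 together, mostly miR-30c-5p, had -1.82, -2.09 and -3.33 in the 13 d tables and -1.59, -2.02 and -1.22 in the 31 d tables. At 3 d the difference between the first 2 pairs was -0.05 and -0.04. The comparison across neighbourhoods was chosen after the values were seen and is a description with no test.

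**Figure D3:**
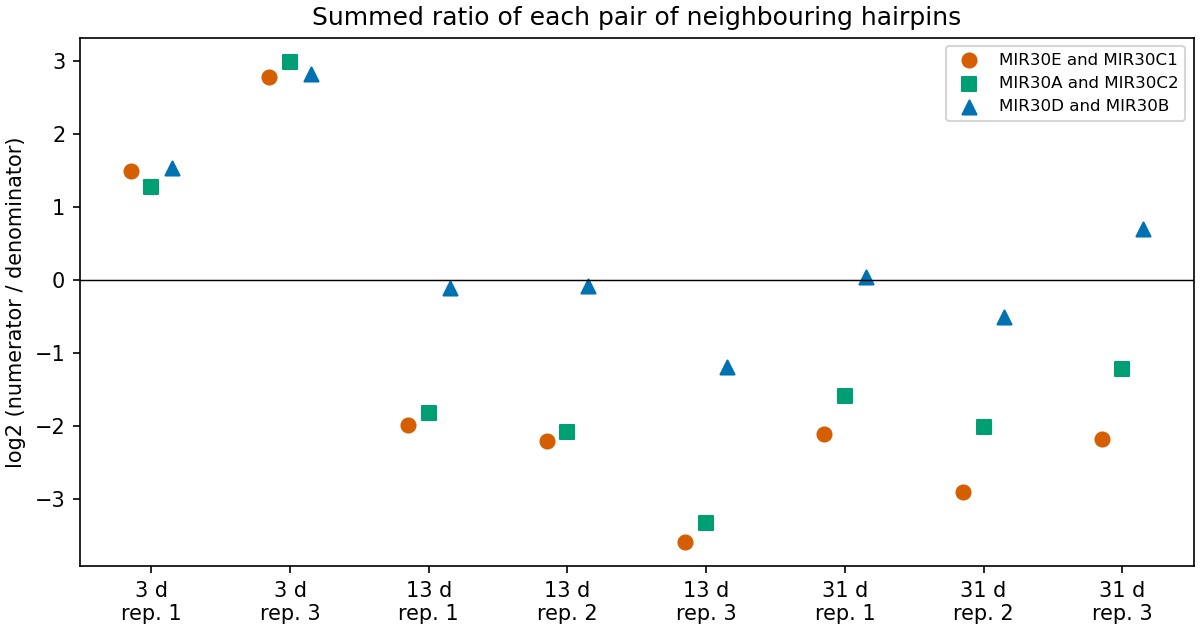
Log2 ratio of the numerator over the denominator side for the scaled reads summed over the arms of each pair of neighbouring hairpins, by table. The MIR30D and MIR30B pair lies 1.88 to 2.87 above the MIR30E and MIR30C1 pair in the 6 tables of 13 d and 31 d and within 0.05 of it at 3 d.

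The make-up of the family differed accordingly. MIR30D and MIR30B together held 89.1% to 94.3% of the scaled miR-30 reads on the numerator sides at 13 d and 31 d, and 66.5% to 79.6% on the denominator sides, ranges that do not overlap. MIR30D alone held 81.3% to 92.8% on the numerator and 62.7% to 78.6% on the denominator sides. MIR30E held 2.19% to 5.73% on the numerator and 8.14% to 21.0% on the denominator sides. At 3 d MIR30D and MIR30B together held 80.7% and 69.6% on the numerator sides, against 79.5% and 69.8% on the denominator sides. The whole family together had log2 ratios of -0.37, -0.34 and -1.59 in the 13 d tables and of -0.38, -0.89 and 0.25 in the 31 d tables.

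**Figure D4:**
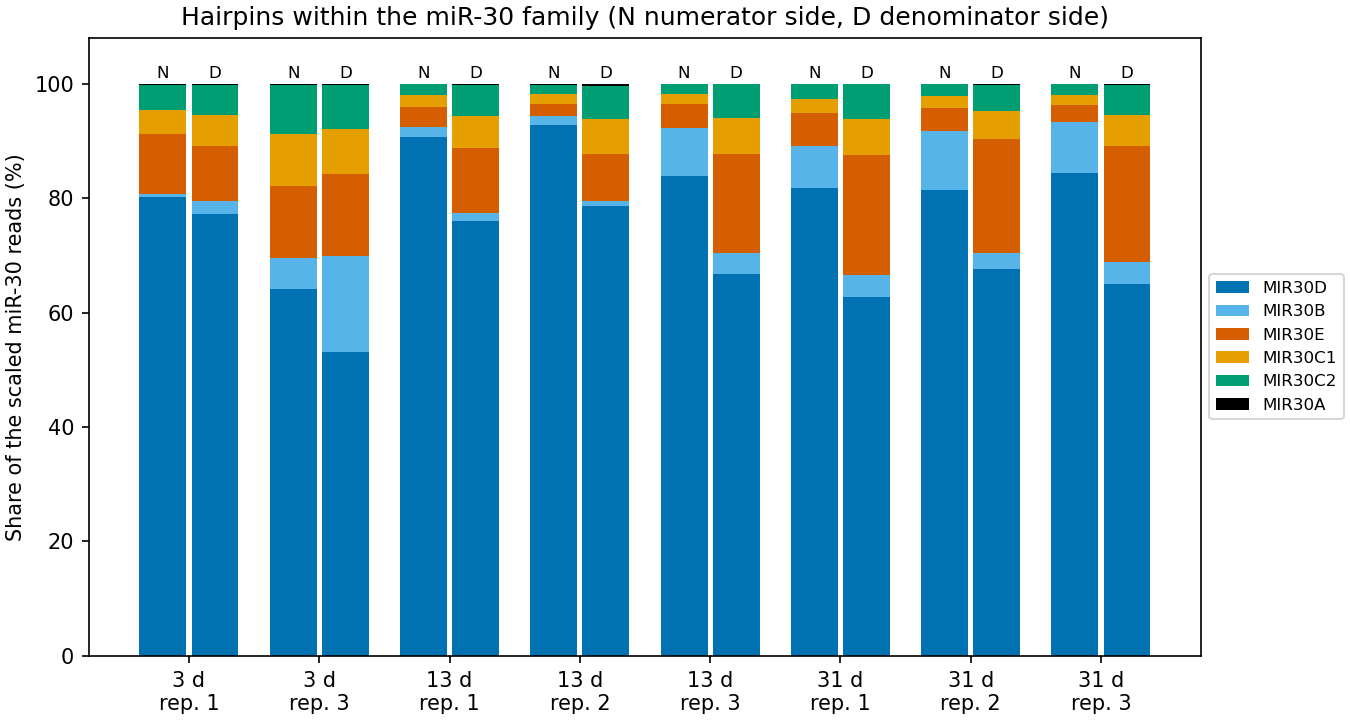
Share of each hairpin in the scaled miR-30 reads, in percent, with the numerator bar (N) left of the denominator bar (D) in each table. In the 6 tables of 13 d and 31 d the 2 blue parts, MIR30D and MIR30B, reach 89.1% to 94.3% in N and 66.5% to 79.6% in D.

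At 3 d the ratios ran the other way, if the 3 d tables have the assumed orientation. MIR30E-3p, MIR30C1-5p, MIR30C2-5p and MIR30D-5p were higher on the numerator side. These are 4 of 11 arms, 2 of them the same miR-30c-5p, beside 10.3% of 19893 regions called, 6.97% higher and 3.33% lower. MIR30D-5p had 492201 and 289645 reads on the numerator sides of replicates 1 and 3, against 102259 and 34469 on the denominator sides, and a log2 ratio of 2.33 ± 0.53 (SE, n = 2 tables, limma adjusted p = 0.0035). MIR30E-3p had 55302 and 27315 on the numerator sides, against 9082 and 3530, and a log2 ratio of 2.44 ± 0.59 (n = 2, limma adjusted p = 0.0057). Both were higher in 2 of 2 tables. The log2 ratio of MIR30C1-5p was 2.10 ± 0.62 (n = 2, limma adjusted p = 0.0278).

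The other 7 tested arms did not pass at 3 d. MIR30C1-3p, MIR30D-3p, MIR30B-3p and MIR30A-3p had log2 ratios of 2.10 to 2.41 with limma adjusted p of 0.0579 to 0.0726, and MIR30A-5p had 1.52. MIR30E-5p had -0.38 in replicate 1 and 2.33 in replicate 3, and MIR30B-5p had -0.73 and 1.22, so that their tables lay on opposite sides of 0. The median of the arms was 2.10, beside -1.04 over all regions tested. Over the 3945 regions with at least 10 reads on each side it was -0.20. Over the 5893 regions tested on all days the 2 tables had medians of 0.82 and 1.41. The calls rest on replicate 3: without it no arm passed by limma. Relative to the table medians 2 of the 4 passed, MIR30E-3p at 1.33 and MIR30D-5p at 1.22, while the calls over all regions became 1138 higher and 8743 lower, beside 1387 and 663 as deposited.

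From 3 d to the later times most of the family's ratios were lower. The contrasts between times hold only if the sides of the 3 d tables run as those of the later ones, which is assumed. In the contrast of 13 d against 3 d, 9 of 11 arms passed, with miR-30c-5p counted at both its places. All were lower, beside 35.5% of 6600 regions called, 32.8% lower and 2.65% higher. In the contrast of 31 d against 3 d, the same 9 arms passed, beside 30.4% of 8680 regions called, 28.3% lower and 2.04% higher. MIR30B-5p, at -0.34 and 0.78, and MIR30B-3p, at -1.45 and -1.35, did not pass in either. Differences of the others ran from -5.48 for MIR30A-3p to -2.66 for MIR30A-5p at 13 d, and from -5.18 for MIR30A-3p to -2.33 for MIR30D-5p at 31 d. The 2 contrasts share the 3 d tables, and without 3 d replicate 3 the arms passing at 13 d against 3 d were 5, with MIR30E-5p, MIR30D-5p, MIR30D-3p and MIR30A-5p lost. MIR30A-5p at 13 d against 3 d was lost also without 13 d replicate 2 or replicate 3. At 31 d against 3 d, MIR30A-5p did not pass without 3 d replicate 1, 13 d replicate 2, or 31 d replicate 1 or 3. MIR30D-3p did not pass there without 31 d replicate 1 or 3. In that contrast, the calls of MIR30D-5p, MIR30D-3p and MIR30A-5p were likewise lost without 3 d replicate 3, and also without 31 d replicate 2. Relative to the table medians, these 3 arms passed in neither contrast: their differences were -1.16, -1.71 and -0.99 at 13 d against 3 d and -0.57, -0.89 and -0.66 at 31 d against 3 d, with limma adjusted p of 0.112 to 0.532. MIR30B-5p then had 1.33 at 13 d against 3 d (limma adjusted p = 0.136), and at 31 d against 3 d it passed as higher, at 2.54 (limma adjusted p = 0.0187). The other 6 arms still passed as lower in both contrasts. Between 31 d and 13 d no arm passed by limma, at differences of -0.18 to 1.11, beside 1 of 11621 regions (0.00861%); 1891 regions and none of the arms had an unadjusted p below 0.05, and MIR30B-5p had the lowest of the arms at 0.133.

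Within hairpins, the 2 arms were not always alike. At 13 d and 31 d the log2 ratio of MIR30E-5p was lower than that of MIR30E-3p in 6 of 6 tables, by a mean of -0.87 ± 0.65 (SD, n = 6). That of MIR30D-5p was higher than that of MIR30D-3p in 6 of 6, by 0.67 ± 0.44, and that of MIR30A-5p higher than that of MIR30A-3p in 6 of 6, by 1.91 ± 0.67. MIR30C1, at 0.09 ± 0.40, and MIR30B, at -0.23 ± 0.75, had tables on both sides of 0. Between neighbours, MIR30D minus MIR30B was -0.72 ± 0.54, below 0 in 6 of 6 tables. MIR30E minus MIR30C1 was -0.57 ± 0.52, below 0 in 6 of 6, and MIR30A minus MIR30C2 was 0.77 ± 0.37, above 0 in 6 of 6. These 2 are in effect comparisons with the shared miR-30c-5p, not between neighbouring hairpins; for the 3p arms alone, which are not shared, MIR30E minus MIR30C1 was 0.04 ± 0.23. At 3 d several of these differences had the other sign: MIR30D minus MIR30B was 2.23 and 1.86, MIR30A-5p minus MIR30A-3p was -0.56 and -1.22, and MIR30A minus MIR30C2 was -0.05 and -0.88. Over all 8 tables MIR30D minus MIR30B had a mean of -0.03 ± 1.36 (SD, n = 8; exact p = 0.953) and the MIR30A arms 1.21 ± 1.42 (exact p = 0.0625). MIR30E-5p minus MIR30E-3p kept its sign in 8 of 8 tables, at -1.02 ± 0.75, and MIR30D-5p minus MIR30D-3p in 8 of 8, at 0.56 ± 0.43, each with exact p = 0.0078, the smallest that 8 tables allow. Over the 6 later tables, the exact two-sided sign-flip permutation tests gave p = 0.03125, the smallest they allow, for each of the 6 differences with 1 sign in all of them. After Benjamini-Hochberg adjustment over the 18 exact tests of both kinds, the smallest adjusted p was 0.0703, so none passed; that the adjusted value decides was settled after the values were seen.

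Forms of several arms also differed between the sides, and those of 2 are described below. Of MIR30D-3p reads at the most frequent start, 22 nt reads made up 41.2% to 59.6% on numerator sides at 13 d and 31 d. On denominator sides they made up 25.1% to 34.5%. For 20 nt reads of MIR30E-3p the ranges were 3.06% to 11.9% and 0.93% to 2.82%. Neither difference kept its direction in both tables of 3 d, and neither was tested. MIR30E-5p is read mainly from its RefSeq start and in part from a start 1 base later, which has another seed.
miR-30e-5p starting 1 base later: gUAAACAUccuugacuggaag
Here the capitals mark bases 2 to 8 of the shifted form, cut at the RefSeq 3′ end. At 13 d this form made up 14.2%, 16.1% and 14.4% of MIR30E-5p reads on the numerator sides, against 7.68%, 9.23% and 6.35% on the denominator sides. At 31 d it made up 15.8%, 19.4% and 16.96% on the numerator sides, against 5.79%, 6.13% and 6.77% on the denominator sides. The ranges of the sides do not overlap at these times. At 3 d the shares were 7.52% and 7.16% on the numerator and 6.52% and 5.58% on the denominator sides.

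The log2 ratio of the shifted form of MIR30E-5p lay above that of the RefSeq start by 1.35 ± 0.38 (SD, n = 6) at 13 d and 31 d, and was above it in 8 of 8 tables. The shifted form rested on 98 to 3443 reads on a numerator and 309 to 8509 on a denominator side in the 6 later tables. No other 5p arm of the family had more than 2.73% of its reads at the base after its most frequent start, on either side of any table. This measure was looked up after earlier values were seen and carries no test.

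MIR30D-5p was read mainly at 23 and 24 nt. Reads of 24 nt made up 54.5%, 55.7% and 38.0% of the arm on the numerator sides at 13 d, against 37.1%, 26.3% and 23.8% on the denominator sides. At 31 d they made up 43.4%, 38.0% and 47.4% on the numerator sides, against 27.7%, 27.3% and 23.97% on the denominator sides. The log2 ratio of the 24 nt form was above that of the 23 nt form by 1.00 to 1.97 in these 6 tables, and by -0.84 and 0.02 at 3 d, where 24 nt reads made up 37.5% and 55.6% on the numerator and 50% and 56.1% on the denominator sides. The near-equal total of MIR30D-5p at 31 d, replicate 1, thus joins a 24 nt form at 0.66 and a 23 nt form at -0.38. This too was chosen after values were seen and carries no test.

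**Figure D5:**
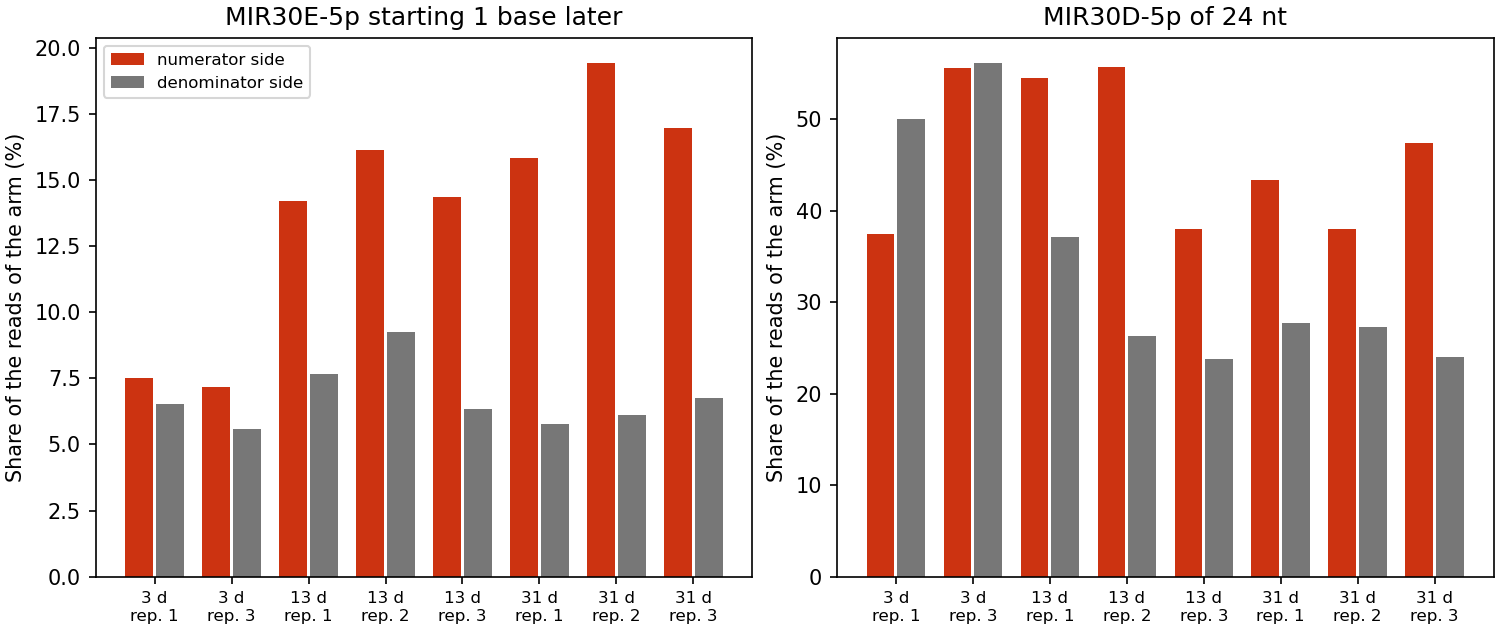
Left, share of MIR30E-5p reads that start 1 base after the RefSeq start; right, share of MIR30D-5p reads that are 24 nt long, both in percent of the arm's reads, with the numerator bar left of the denominator bar in each table. In the 6 tables of 13 d and 31 d the numerator bar is the higher one in both panels.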

How the data were processed

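Per the labels' protocols, small RNA libraries were size-selected to 20 to 40 nt; alignment used Bowtie2 2.2.9 and hg19 (GRCh37), per the submitters' processing notes. The deposited tables carry no header and no library names. They give, for each alignment, whole read counts of both sides, the same counts per kilobase and scaled to an implied library total (RPKM), and the ratio of the scaled values, as the authors computed it; that reading was checked on every row. The unnamed columns were used because the members are measured by them, and no count model was fitted. Starts count from 0 and were converted to 1-based positions.

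Scaled values were summed per arm. Elsewhere, alignments with 5′ ends within 5 nt of a peak formed 1 region; 188 alignments at window edges were left out. A region was tested on a day if both sides were above 0 in every table. Log2 ratios went into limma 3.58.1 (R 4.3.3; robust, with a variance trend), tested on simulated data. The table is the pair, since the labels name 1 table for the Dox and the water library of a day and number. Whole hairpins were folded with RNAfold 2.7.2, and no result given here uses the folds. Members, lists and measures were chosen with earlier results of these data known; all 12 arms are named. The alternatives were 18 other settings.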

Additional observations from a re-analysis of the deposited data

Results flagged for a closer look

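The ratios of 9 arms, with miR-30c-5p counted at both its places, differed between times by limma's test of the difference itself. That is what singles them out here, and it assumes that the 3 d tables are oriented as the later ones. At 13 d minus 3 d the log2 differences were -3.90 for MIR30E-5p, -4.89 for MIR30E-3p, -4.59 for MIR30C1-5p, -4.55 for MIR30C1-3p, -2.82 for MIR30D-5p, -3.37 for MIR30D-3p, -2.66 for MIR30A-5p, -5.48 for MIR30A-3p and -4.61 for MIR30C2-5p. At 31 d minus 3 d they were -4.08 for MIR30E-5p, -4.28 for MIR30E-3p, -3.77 for MIR30C1-5p, -4.11 for MIR30C1-3p, -2.33 for MIR30D-5p, -2.65 for MIR30D-3p, -2.42 for MIR30A-5p, -5.18 for MIR30A-3p and -3.78 for MIR30C2-5p. Both sets share the 2 tables of 3 d. At 31 d minus 3 d, MIR30A-5p passed in 6 of 17 alternatives, MIR30D-3p in 9 of 17 and MIR30D-5p in 12 of 17. Relative to the table medians, MIR30D-5p, MIR30D-3p and MIR30A-5p passed in neither set, at -1.16, -1.71 and -0.99 for 13 d and -0.57, -0.89 and -0.66 for 31 d, while the other 6 passed in both at sizes of -3.81 to -2.01, and MIR30B-5p passed as higher at 31 d minus 3 d, at 2.54. Groups of 2 or 3 tables are too small to look for single outlying tables.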

How the results depend on the processing

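Of 1146 values of single arms under the alternatives, 1017 kept their direction and their side of the threshold, 87 lost the threshold, 15 gained it and 27 changed sign. Arms passing at 3 d, 4 as reported, were 2 after centring, beside 1138 of 19893 regions higher and 8743 lower. No arm passed with each day alone, beside 1134 regions higher and 971 lower, or without the robust fit and trend, beside 1074 and 466. None passed without the replicate block (the sides unpaired), beside 594 higher and 36 lower. With 20 to 24 nt 8 arms passed, beside 648 of 9432 regions higher and 506 lower. At the dominant 5′ end 7 passed, beside 1615 of 14614 higher and 652 lower. A pseudocount of 0.5 read gave 8, beside 1908 of 249958 higher and 212942 lower. At 31 d, 6 arms passed as reported and 3 after centring, beside 1237 of 27086 regions higher and 1549 lower. Without the replicate block none did, beside 51 higher and 855 lower, and without the robust fit and trend 2 did, beside 469 and 3234. Leaving out 1 table gave 1 to 6 arms at 31 d, beside 1289 to 4480 regions called. For 31 d against 3 d, 9 as reported, the unpaired fit without the replicate block gave 5, beside 19 of 8680 regions higher and 1479 lower. The replicate block changed no other count by over 1.5 times. The cause was not tested.

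Signs changed for arms that had not passed as reported, and not all of these were near 0. As reported, MIR30B-3p was -1.45 at 13 d minus 3 d and -1.35 at 31 d minus 3 d. MIR30E-5p was 0.97 at 3 d, and MIR30B-5p was 0.78 at 31 d minus 3 d. After centring, at 3 d MIR30E-5p was -0.14 and MIR30B-5p -0.87; at 13 d MIR30B-5p was 0.46 and MIR30D-5p 0.063; at 31 d MIR30D-3p was 0.094; at 13 d minus 3 d MIR30B-5p was 1.33 and MIR30B-3p 0.21; at 31 d minus 3 d MIR30B-3p was 0.41. With 20 to 24 nt MIR30D-5p at 31 d was -0.024. Without the 3 tables of low MIR30E-5p share, an alternative chosen after seeing the data, MIR30B-3p was -0.13 at 13 d, MIR30B-5p -0.20 at 31 d minus 3 d and MIR30E-5p 0.73 at 31 d minus 13 d. Leaving out 1 table gave -0.38 to 2.33 for MIR30E-5p and -0.73 to 1.22 for MIR30B-5p at 3 d, -0.19 to 0.041 for MIR30B-5p at 13 d, and -0.31 to 0.32 for MIR30D-5p at 31 d. It gave MIR30B-5p -1.31 to 0.64 at 13 d and -0.20 to 1.75 at 31 d minus 3 d. At 31 d minus 13 d it gave MIR30E-5p -0.63 to 0.28, MIR30B-3p -0.29 to 0.62, MIR30A-5p -0.044 to 0.64 and MIR30A-3p -0.49 to 0.88. In the exact tests it gave -0.0078 to 0.15 for the arms of MIR30C1 and -0.36 to 0.20 for MIR30D minus MIR30B over 8 tables, and -0.39 to 0.033 for the arms of MIR30B and -0.037 to 0.10 for the 3p arms of MIR30E minus MIR30C1 over the later 6.

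The 3 d calls rest on 2 tables of which replicate 3 decides. The direction at 3 d is opposite to later times only under the assumed common orientation of the tables. The tables leave out alignments that lack denominator reads, so numerator totals can be too low. The minor arms rest on few reads, down to 9 for MIR30A-3p. All p-values measure the spread between tables, and the 3p arm of MIR30C2 lies below what this depth can compare.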

Other observations

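Outside the family, log2 ratios less each table's median were compared with the mean of the 11 tested arms, miR-30c-5p counted at both its places. Among 1477 candidates, the 3 regions most alike over the 8 tables started at chromosome 12, 7072905, chromosome 1, 110141562, and chromosome 4, 38869713, each on the plus strand of hg19. Pearson's r was 0.978, 0.976 and 0.975 over 8 tables that share their days, as a description. Before that subtraction, the first had log2 ratios of -2.40, -2.08 and -3.70 at 13 d and of -2.15, -2.18 and -1.96 at 31 d, beside 0.93 and 2.15 at 3 d. These positions were not named.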
